A study of Mus musculus with 96 samples.

Results

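ATP-binding cassette (ABC) genes were taken from the deposited expression table by symbol: the letters Abc, a subfamily letter from a to g, a number and an optional a or b. This rule found 50 of the 54532 genes in the table and used no expression value. Of these, 44 reached a transcript level of at least 1 TPM (a transcript level corrected for transcript length and scaled to the same total in each library) in at least 3 mice and entered the tests. The other 6, Abca15, Abca16, Abca17, Abcb5, Abcc12 and Abcg8, had highest group means between 0.3 and 0.567 TPM. By known role, the 50 members comprised 11 drug and organic anion efflux genes, 16 ABCA and 2 ABCG lipid transporter genes, and 4 genes of the type that secretes bile components. A further 5 encode mitochondrial and lysosomal dimeric transporters, 4 peroxisomal and lysosomal transporters, 2 potassium channel subunits and 4 soluble proteins that are not transporters, which leaves 2 others.

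ABC transporters use ATP to move lipids, conjugated drugs and metabolites, peptides or metal-binding cofactors across a membrane, and most of those in the plasma membrane work as exporters. In the kidney, several of them sit in the brush border of the proximal tubule and pass organic anions, urate and drug conjugates into the urine after uptake carriers have brought these in from the blood. Others serve organelles, where they import fatty acids into peroxisomes or handle haem and vitamin B12.

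The tissue came from the kidneys of male C57BL/6 mice without a transgene or treatment, aged 6 to 8 weeks and fed normal chow, and was dissected by hand into glomeruli and 14 tubule segments. The groups were Glomerulus, the initial convoluted part of the proximal tubule (PTS1), its straight part in the cortex (PTS2) and its final straight part in the outer medulla (PTS3), the descending thin limb of short loops (DTL1) and of long loops in the outer (DTL2) and inner medulla (DTL3), and the ascending thin limb (ATL). Next came the thick ascending limb in the medulla (MTAL) and cortex (CTAL), DCT and CNT, which stand for the distal convoluted and the connecting tubule, and the collecting duct in 3 stretches, cortical (CCD), outer medullary (OMCD) and inner medullary (IMCD). The 93 libraries came from 53 mice, and pieces of 1 mouse and segment were averaged, so that each value is 1 mouse (5 in PTS2, CTAL and CCD, 4 in ATL and OMCD, and 3 in the other groups). Nothing in the labels gives litters or dissection days, so p-values measure the spread between these mice only. TPM keep no record of reads, so depth is unknown, and in such bulk samples fewer cells of a type and less RNA per cell cannot be told apart.

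Segment markers were at their highest in the groups named for them for the Glomerulus, PTS1, PTS2, DTL1, DTL2 and DTL3, ATL, thick limb, DCT and collecting duct lists. Slc7a13, taken as the PTS3 marker, had a higher mean in PTS2 (2050 TPM) than in PTS3 (1500 TPM), and Calb1, taken for CNT, was highest in DCT. Genes for odorant and vomeronasal receptors, which kidney tubules are not expected to use, gave a yardstick for low levels: the 95th percentile of 1979 such genes was 3.4 TPM in Glomerulus, 5.48 in DTL1, 1.97 in DTL2, 2.85 in DTL3, 2.7 in ATL and 1.06 in OMCD, and at most 0.51 TPM in the remaining groups. The ATL libraries stood apart from each other, at 0.23 and 0.09 TPM in mice 2 and 3 and 6.89 and 5.18 TPM in mice 4 and 6. DTL1 mouse 5 had the highest percentile of its group, at 11.2 TPM.

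All 44 tested members differed among the 15 groups in limma's moderated F-test (adjusted p under 0.05), beside 93.9% of all 33793 genes tested. The summed level of the 50 members was highest in PTS2 (1520 ± 43.5 TPM, SD, n = 5) and lowest in MTAL (732 ± 77.2 TPM, n = 3). At least 1 TPM was reached in all 15 groups by 18 members, and 30 members had a highest group mean of at least 10 TPM or marked a single group. Of the 44, 5 marked a single group in the intersection-union test described below, beside 8.8% of all genes. Of the 30, 8 were highest in Glomerulus, 6 in PTS1, PTS2 or PTS3 and 6 in IMCD. The mice of the highest group did not overlap those of the next group in 13 of the 30 and did overlap in 17. The share over all genes is not given here, so these counts describe the members only and set them apart from no other genes.

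**Figure D1:**
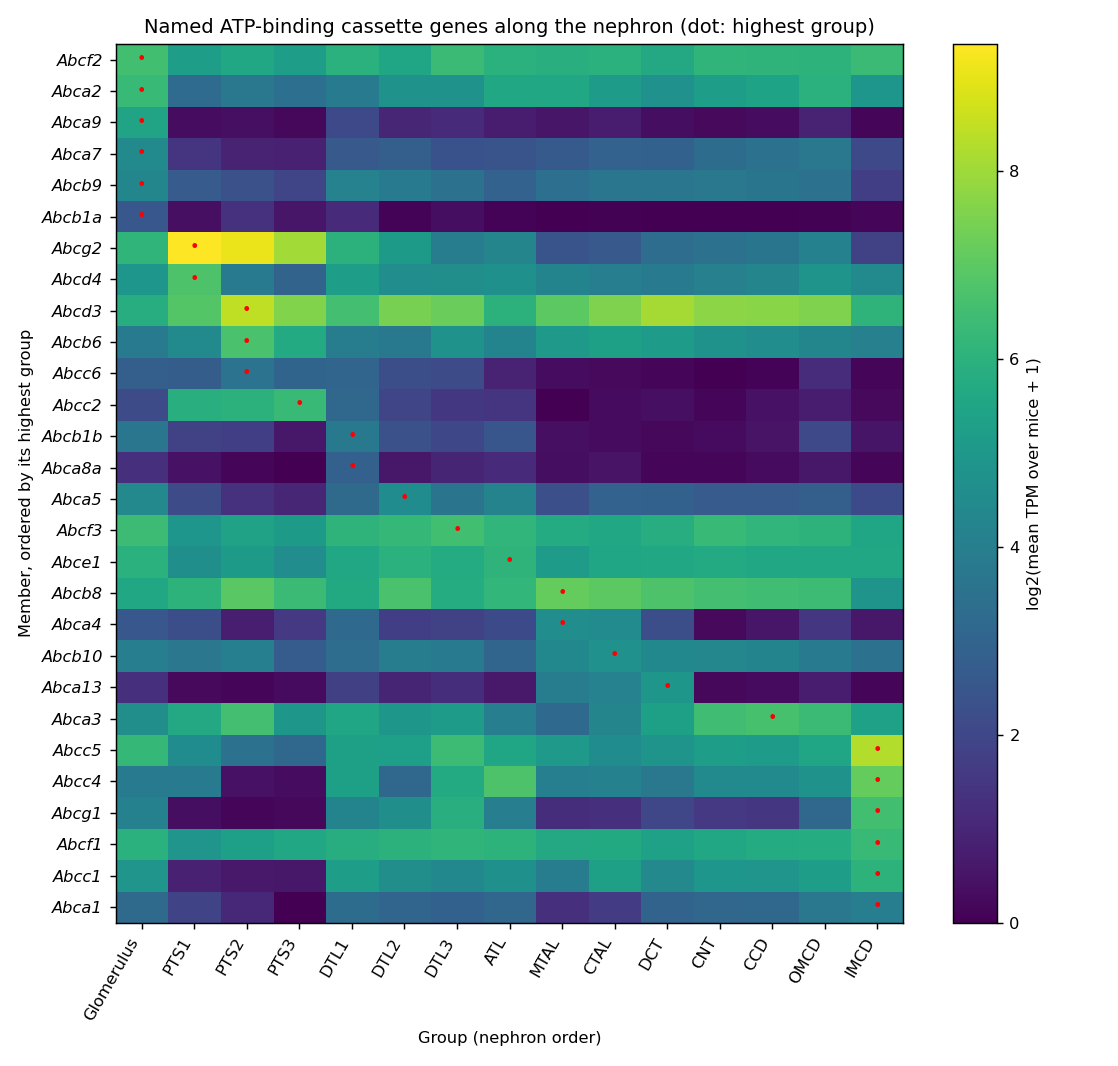
Mean level of 28 of the 30 named members (rows) in the 15 groups (columns, in nephron order), coloured by log2(mean TPM + 1), with a red dot on the highest group of each row. Abcg2 stands out in PTS1 at 652 TPM, Abcd3 in PTS2 at 347 TPM and Abcc5 in IMCD at 310 TPM, while the rows of Abce1 and the Abcf genes vary little.

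Organic anion and drug efflux genes differed between the proximal tubule and the later segments in both directions. Abcg2 and Abcc2, which encode apical exporters of urate and sulphate conjugates and of glutathione and glucuronide conjugates, were far higher in the 3 proximal groups than in the segments from MTAL to IMCD. Abcc1 and Abcc4, which export glutathione conjugates with leukotriene C4 and cyclic nucleotides with prostaglandins, were lower on average in the proximal groups, although the PTS1 mice of Abcc4 overlapped those of MTAL, CTAL and DCT. Of the 10 tested genes of this role, 3 were higher and 5 lower in the proximal groups, and the lower calls for Abcc3 and Abcc10 were lost after rescaling, quantile normalization or a pseudocount of 5. Over all roles 17 of 44 members were called (adjusted p under 0.05 by limma and a log2 difference of at least 1), 4 higher and 13 lower, beside 19.7% of all genes (4.46% higher and 15.3% lower). The median log2 difference was -0.16 over the members and -0.10 over all genes. Markers of other cells also differed. Summed intercalated cell markers were at most 4.85 TPM in the proximal mice, 527 to 579 TPM in DCT and 3550 to 4170 TPM in CNT. Summed leukocyte markers were at 32.1 to 154 TPM in the proximal groups, 402 to 871 TPM in CTAL and 4.49 to 4.74 TPM in IMCD. Their part in these calls was not tested.

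The Abcg2 level was 719, 561 and 676 TPM in the PTS1 mice, 572, 495, 531, 542 and 530 in PTS2, and 300, 233 and 262 in PTS3. In MTAL it was 2.75, 5.4 and 5.19 TPM, and in IMCD 3.71, 2.51 and 1.16 TPM. Every proximal mouse was thus above every mouse of the later segments, where the highest value was 21.4 TPM in OMCD. The log2 difference of proximal against later groups was 5.86 (SE 0.26, adjusted p = 3.02e-24 by limma). Between neighbours the order PTS1, PTS2 was not separated, since their mice overlapped and the margin was 0.29 (SE 0.51). Abcg2 was also present in Glomerulus (62.6, 77.1 and 65.1 TPM) and DTL1 (72.8, 60.2 and 57.2 TPM), above the receptor yardstick there, and it was lower along the descending limb, with means of 33 TPM in DTL2 and 14.3 TPM in DTL3. Proximal RNA fell along the same limb, with medians of the PTS3 marker at 30.5, 3.41 and 1.26 TPM and means of Pdzk1, a proximal scaffold gene, at 127, 18 and 1.75 TPM in DTL1, DTL2 and DTL3, and its part in these Abcg2 levels was not tested. The ATL mice ran from 0.49 to 47.1 TPM, the higher 2 being mice 4 and 6, in which the receptor genes were also higher; the part of these in that spread was not tested.

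Abcc2 was at 48.4, 53.7 and 74.2 TPM in PTS1, at 51.3, 70.7, 63.4, 61.4 and 72.8 in PTS2, and at 68, 85.8 and 85.2 in PTS3. These 3 groups overlapped, and the highest level in any mouse from MTAL to IMCD was 0.88 TPM. The log2 difference was 5.77 (SE 0.16, adjusted p = 2.49e-32 by limma). The highest mean of Abcc2 was in PTS3, at 79.7 ± 10.1 TPM (SD, n = 3), and PTS2 minus PTS3 was not called for Abcc2 (-0.31, SE 0.31, adjusted p = 1 by limma) or for Abcg2 (1.01, SE 0.51, adjusted p = 0.285). For Abcg2 every PTS2 mouse (495 to 572 TPM) was nonetheless above every PTS3 mouse (233 to 300 TPM). The SE of Abcg2 rests on 1 spread shared by all 15 groups, among them ATL, where Abcg2 ran from 0.49 to 47.1 TPM. Abcc6, the gene mutated in pseudoxanthoma elasticum, was also higher in the proximal groups than in the later ones, at a lower level: 6.02, 4.77 and 6.72 TPM in PTS1, 7.13, 12.3, 10.3, 11.8 and 12.6 in PTS2, and 4.38, 11.3 and 5.75 in PTS3. Its mice in MTAL, CTAL, DCT, CNT and CCD were at 0.485 TPM or less and those in OMCD at 0.87 to 1.94 TPM, and the log2 difference was 2.69 (SE 0.20, adjusted p = 1.8e-16 by limma). Its DTL1 mice were at 2.09, 2.6 and 17.2 TPM, the last (mouse 5) above every proximal mouse and above that mouse's receptor percentile of 11.2 TPM, the other 2 under the DTL1 yardstick of 5.48 TPM. Glomerulus was at 10.4, 3.55 and 4.3 TPM.

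The promoters of the 2 strongest proximal members are shown because both genes are high in the same 3 groups. RefSeq (GRCm38.p6) windows from 250 bases before to 50 bases after a transcript start were at hand for 38 members (45 windows). They were searched on both strands for CAAAGTCCA (an HNF4A site), GTTAAT (1 arm of the palindromic HNF1 site) and TGACNNNGC (an antioxidant response element, N any base), and matches are in capitals. For genes with several starts, the window with the highest GC content is printed here: for Abcg2 chr6:58640296-58640595 on the plus strand, the richest of 3, and for Abcc2 chr19:43782058-43782357 on the plus strand.
Abcg2 promoter: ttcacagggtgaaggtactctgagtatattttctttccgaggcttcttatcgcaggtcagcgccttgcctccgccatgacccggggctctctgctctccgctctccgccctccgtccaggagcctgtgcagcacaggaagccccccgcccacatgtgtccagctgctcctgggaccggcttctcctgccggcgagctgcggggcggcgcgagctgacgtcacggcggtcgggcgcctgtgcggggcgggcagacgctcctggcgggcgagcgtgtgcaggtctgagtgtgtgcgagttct
Abcc2 promoter: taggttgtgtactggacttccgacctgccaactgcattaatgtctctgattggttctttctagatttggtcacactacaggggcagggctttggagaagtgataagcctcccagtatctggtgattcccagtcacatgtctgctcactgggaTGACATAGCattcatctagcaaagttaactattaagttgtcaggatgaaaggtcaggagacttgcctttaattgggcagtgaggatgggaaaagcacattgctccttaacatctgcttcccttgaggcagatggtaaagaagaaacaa
The Abcc2 window holds 1 antioxidant element, a motif found in 12.4% of all 32851 windows and in 7 of the 45 member windows. Neither window holds the HNF4A or HNF1 letters, which occur in 0.475% and 7.1% of all windows. The HNF1 letters were in none of the member windows (0 of 45), and a match or its absence in these windows says nothing on binding.

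**Figure D2:**
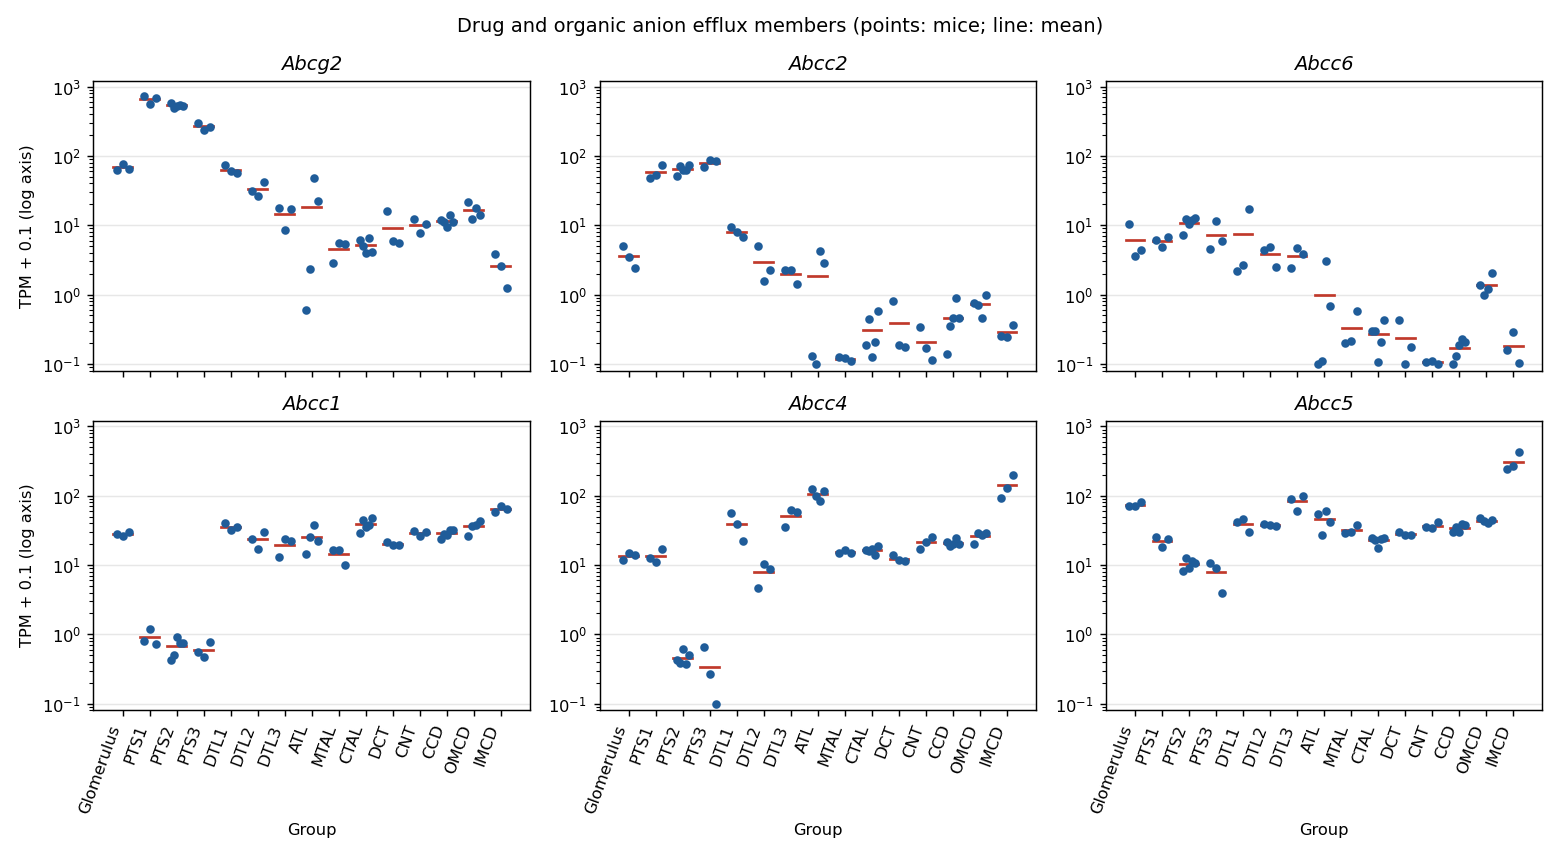
Level of 6 efflux members in every mouse (points, TPM + 0.1 on a log axis) and the group mean (red line) in the 15 groups. Abcg2, Abcc2 and Abcc6 are high in the 3 proximal groups and low from MTAL on, Abcc1 is at about 1 TPM or less in the proximal groups, and Abcc5 and Abcc4 have their highest means in IMCD at 310 and 141 TPM.

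Abcc1 was at about 1 TPM or less in the proximal tubule: 0.69, 1.1 and 0.62 TPM in PTS1, 0.33, 0.4, 0.83, 0.65 and 0.65 in PTS2, and 0.46, 0.37 and 0.68 in PTS3. From MTAL on it was never under 9.79 TPM, and it reached 57.4, 71.8 and 64.6 TPM in IMCD, where every mouse was above every mouse of CTAL, the next group. The proximal groups were lower by 4.25 log2 units, written as -4.25 (SE 0.10, adjusted p = 6.38e-34 by limma). Within the thick limb it was lower in MTAL (16.2, 16.5 and 9.79 TPM) than in CTAL (29.1, 44.4, 35.6, 37.8 and 47.6 TPM), with a log2 difference of -1.42 (SE 0.21, adjusted p = 2.23e-06).

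Abcc4 differed within the proximal tubule itself. The PTS1 mice were at 12.7, 10.8 and 16.7 TPM, the PTS2 mice at 0.32, 0.29, 0.52, 0.27 and 0.4, and the PTS3 mice at 0.56, 0.17 and 0. The PTS1 mice overlapped those of MTAL (14.6 to 16.4 TPM), CTAL (13.9 to 18.6 TPM) and DCT (11.5 to 13.8 TPM). PTS1 was higher than PTS2 by 3.38 log2 units (SE 0.22, adjusted p = 9.55e-17 by limma), without overlap. Past the proximal tubule, Abcc4 rose along the long descending limb, from 4.62, 10.3 and 8.55 TPM in DTL2 to 34.9, 61.1 and 57.7 in DTL3 (log2 difference DTL2 minus DTL3 -2.61, SE 0.25, adjusted p = 3.29e-11). It was at 124, 100, 83.4 and 117 TPM in ATL, where mice 2 and 3 overlapped mice 4 and 6, and at 91.3, 131 and 200 TPM in IMCD, whose mice overlapped those of ATL. IMCD exceeded OMCD (20.1, 28.7, 26.7 and 28.5 TPM), with OMCD minus IMCD at -2.30 (SE 0.23, adjusted p = 4.2e-11).

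Abcc5, an exporter of cyclic nucleotides and nucleotide analogues, marked IMCD. It was at 246, 264 and 420 TPM there and at 89.1, 60.1 and 99.9 TPM in DTL3, the next group, without overlap. Its smallest margin over any other group was 1.88 log2 units (SE 0.24, adjusted p = 3.57e-07 in limma's intersection-union test, which requires a gene to exceed each of the other 14 groups). In the IMCD, 0.527% of all genes passed that test. OMCD held 47.6, 43.1, 40.1 and 44.1 TPM, and OMCD minus IMCD was -2.76 (SE 0.23, adjusted p = 9.03e-14). The lowest level was in PTS3, at 10.6, 8.95 and 3.86 TPM, and the mean of IMCD was 39.8 times that of PTS3. PTS1 (24.9, 18.4 and 23.9 TPM) was above PTS2 by 1.05 (SE 0.22, adjusted p = 0.000176), a call lost without PTS1 mouse 1 (0.97), without PTS2 mouse 1 (0.98) or with a pseudocount of 5.

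The windows of the 2 efflux genes with the highest IMCD levels are shown for comparison with the proximal pair: Abcc4 at chr14:118706170-118706469 (minus strand, the richer in GC of 2 windows) and Abcc5 at chr16:20426345-20426644 (minus strand).
Abcc4 promoter: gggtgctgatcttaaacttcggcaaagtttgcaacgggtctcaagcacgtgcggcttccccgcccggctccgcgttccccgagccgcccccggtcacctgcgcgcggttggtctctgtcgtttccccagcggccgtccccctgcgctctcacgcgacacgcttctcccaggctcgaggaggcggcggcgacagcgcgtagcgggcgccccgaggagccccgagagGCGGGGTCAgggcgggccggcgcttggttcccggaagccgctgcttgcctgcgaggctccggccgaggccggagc
Abcc5 promoter: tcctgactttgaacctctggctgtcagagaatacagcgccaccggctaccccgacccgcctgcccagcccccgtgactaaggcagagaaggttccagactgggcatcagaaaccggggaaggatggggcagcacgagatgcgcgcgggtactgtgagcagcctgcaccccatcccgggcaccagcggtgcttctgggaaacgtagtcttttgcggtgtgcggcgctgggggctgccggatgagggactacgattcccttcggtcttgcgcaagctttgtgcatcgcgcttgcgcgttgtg
The Abcc4 window holds the antioxidant element, as the Abcc2 window does. The part of this element in the levels of either gene was not tested. None of the 3 motifs was found in the Abcc5 window (0 matches).

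P-glycoprotein is the multidrug exporter that mice encode in the neighbouring genes Abcb1a and Abcb1b, and transcripts of both were low from MTAL to CCD. Abcb1a was at 3.25, 8.05 and 3.25 TPM in Glomerulus and at 1.02, 1.87, 1.6, 1.6 and 1.45 TPM in PTS2. The Glomerulus level in mice 1 and 3 was under the receptor yardstick of 3.4 TPM for that group, and in mouse 1 under that mouse's own 95th percentile of 4.85 TPM. From MTAL to OMCD no mouse passed 0.11 TPM. Abcb1a passed the single-group test in Glomerulus (margin 1.10, SE 0.16, adjusted p = 9.91e-07 by limma), where 3.22% of all genes did, but the margin was 0.72 without Glomerulus mouse 2, fell below the threshold after rescaling or with a pseudocount of 5, and was -0.84 after quantile normalization. Abcb1b was highest in DTL1 (6.01, 9.59 and, in mouse 5, 22.6 TPM, each above the receptor percentile of its own mouse) and Glomerulus (17.0, 12.5 and 5.75 TPM), which overlapped, and at 0.56 TPM or less in every mouse from MTAL to CCD. In ATL it was at 0 and 0.03 TPM in mice 2 and 3 and at 10.8 and 7.58 TPM in mice 4 and 6, again those with more receptor RNA. The pair share much of their sequence, so reads may have been divided between them, and how the quantification handled such reads is not given in the sources used here. Abcc3 and Abcc10, at highest group means of 9.08 and 9.25 TPM, fell just under the limit for individual description.

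**Figure D3:**
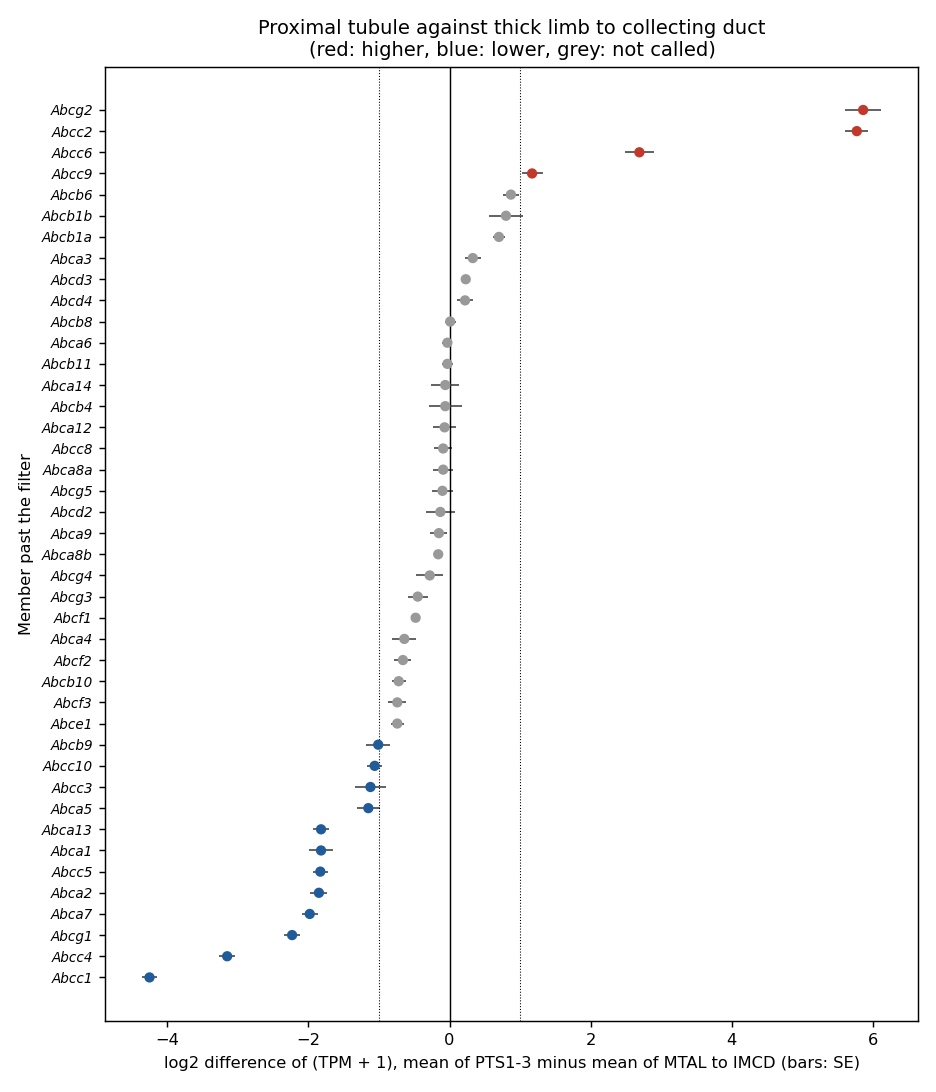
Log2 difference of 42 of the 44 tested members between the mean of PTS1, PTS2 and PTS3 and the mean of MTAL to IMCD (points, with bars for the SE; dotted lines mark a difference of 1 in either direction). Abcg2 at 5.86 and Abcc2 at 5.77 lie far to the right, and Abcc1 at -4.25 and Abcc4 at -3.15 lie farthest to the left.

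Among the 15 tested ABCA and ABCG lipid genes, 6 were called lower in the proximal groups, beside 15.3% of all genes, and 3 of these calls (Abca1, Abca5 and Abca13) were lost with a pseudocount of 5. Abca1, which loads cholesterol onto apolipoprotein A-I, was at 0, 0.005 and 0 TPM in PTS3 and at 0.69 to 1.49 TPM in PTS2, against 4.57, 21.6 and 19.5 TPM in IMCD and 11.2, 15.3, 12.7 and 9.95 in OMCD. The IMCD and OMCD mice overlapped. The PTS1 mice, at 2.41, 1.71 and 4.16 TPM, were above every MTAL mouse (1.16 to 1.63 TPM), overlapped CTAL and were below every mouse from DCT to IMCD. The proximal groups differed from the later ones by -1.82 (SE 0.17, adjusted p = 2.5e-13 by limma). Abca1 was higher in DCT (8.69, 5.57 and 6.31 TPM) than in CTAL (1.54 to 3.25 TPM), with a log2 difference CTAL minus DCT of -1.32 (SE 0.33, adjusted p = 0.00425), a call lost without DCT mouse 1 (-1.16, adjusted p = 0.0527) or with a pseudocount of 5.

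Abcg1, which passes cholesterol to high-density lipoprotein, showed a wide range along the nephron. It was at 0.5 TPM or less in every proximal mouse, at 0.895 to 3.25 TPM from MTAL to CCD, and at 61.1, 106 and 107 TPM in IMCD. The inner medullary descending limb came next, with 59.4, 54.3 and 59.9 TPM in DTL3, just below the lowest IMCD mouse. OMCD (7.67, 10.5, 7.46 and 5.63 TPM) was lower than IMCD by a log2 difference of -3.37 (SE 0.22, adjusted p = 4.47e-17 by limma), and DTL2 (27.4, 15.7 and 28.9 TPM) was lower than DTL3 by -1.29 (SE 0.23, adjusted p = 4.95e-05). DTL3 thus held the highest mean of the descending limb and IMCD that of the collecting duct, as for Abcc5.

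Abca2, an endolysosomal lipid transporter, was at 58.5, 74.5 and 105 TPM in Glomerulus and 48, 80.5, 59.4 and 61.6 in OMCD, which overlapped. It was lowest in PTS1 (7.88, 5.22 and 12.7 TPM), and the proximal groups differed from the later ones by -1.85 (SE 0.12, adjusted p = 9.07e-19 by limma). Abca7, linked to phagocytosis and to risk of Alzheimer disease in humans, was likewise highest in Glomerulus and OMCD, at a lower level: 16.9, 16.9 and 27.8 TPM in Glomerulus, 8.5, 16.4, 12.8 and 11.9 in OMCD, and 1.19, 0.3 and 0.94 in PTS3. Its proximal difference was -1.98 (SE 0.11, adjusted p = 7.75e-20). Abca5, a lysosomal member, had means of 22.2 TPM in DTL2 and 20.4 TPM in Glomerulus, whose mice overlapped, and its order turned to Glomerulus first when medians were used.

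Abca3, known for packing surfactant lipids into the lamellar bodies of the lung, had 2 separate high zones. The PTS2 mice were at 85.3, 86.4, 107, 107 and 78.7 TPM, and the CCD mice at 96, 96, 88.6, 108 and 96.3 TPM, with CNT close by at 89.5, 89 and 90.3. Between them MTAL was at 8.28, 8.22 and 7.92 TPM. PTS2 was above PTS3 (35.1, 27.1 and 27.1 TPM) by 1.62 (SE 0.21, adjusted p = 1.06e-07 by limma), without overlap. From MTAL to CTAL (16.1 to 19.6 TPM) and from CTAL to DCT (37.3 to 41.3 TPM) each step was higher, with differences of -1.06 (SE 0.21, adjusted p = 0.000473) and -1.09 (SE 0.21, adjusted p = 0.000176). The first of these steps was no longer called after rescaling of each mouse or quantile normalization, and both were lost with a pseudocount of 5.

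Abca13 and Abca4 were thick limb and distal members. Abca13, one of the longest proteins of the family, was at 35, 25.7 and 30 TPM in DCT, at 14.8, 16.1, 16.7, 14.9 and 21.2 TPM in CTAL and at 15.5, 15.4 and 12.4 TPM in MTAL. In CNT, the segment that follows DCT, it was at 0.18, 0.14 and 0.13 TPM, without overlap. DCT lay above every CTAL mouse, though its margin of 0.81 (SE 0.22) missed the single-group threshold. Abca4, the photoreceptor transporter mutated in Stargardt disease, was at 29.5, 17.4 and 22.4 TPM in MTAL and 17.1, 24.8, 20.2, 20.6 and 26.9 in CTAL, which overlapped. It fell at the next border to 4.3, 3.42 and 3.54 TPM in DCT (CTAL minus DCT 2.29, SE 0.33, adjusted p = 6.62e-07 by limma) and was at 0.06, 0.17 and 0.31 TPM in CNT.

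Abca9 marked Glomerulus. Its level was 40.5, 39.2 and 48.7 TPM in Glomerulus and 4.08, 2.2 and 3.16 TPM in DTL1, the next group, below the receptor yardstick of 5.48 TPM there. The margin was 3.42 (SE 0.26, adjusted p = 9.86e-15 in limma's single-group test). Abca9 lies between Abca8a and Abca6 on the chromosome. Abca6 reached 1.07 TPM in Glomerulus, under the yardstick. Abca8a instead marked DTL1, at 6.47, 6.53 and 6.1 TPM, exceeding the next group by 1.62 (SE 0.31, adjusted p = 0.000422), where 2.9% of all genes passed the single-group test. Its mean of 6.36 TPM lies near the 95th percentile of the receptor genes in DTL1. Mouse 5, at 6.1 TPM, was under its own percentile of 11.2 TPM, and mice 1 and 3 were above theirs of 5.48 and 5.17 TPM. The call was lost with a pseudocount of 0.1 or 5 and after quantile normalization. Abca8a and Abca8b are close copies, and reads may have been divided between them.

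**Figure D4:**
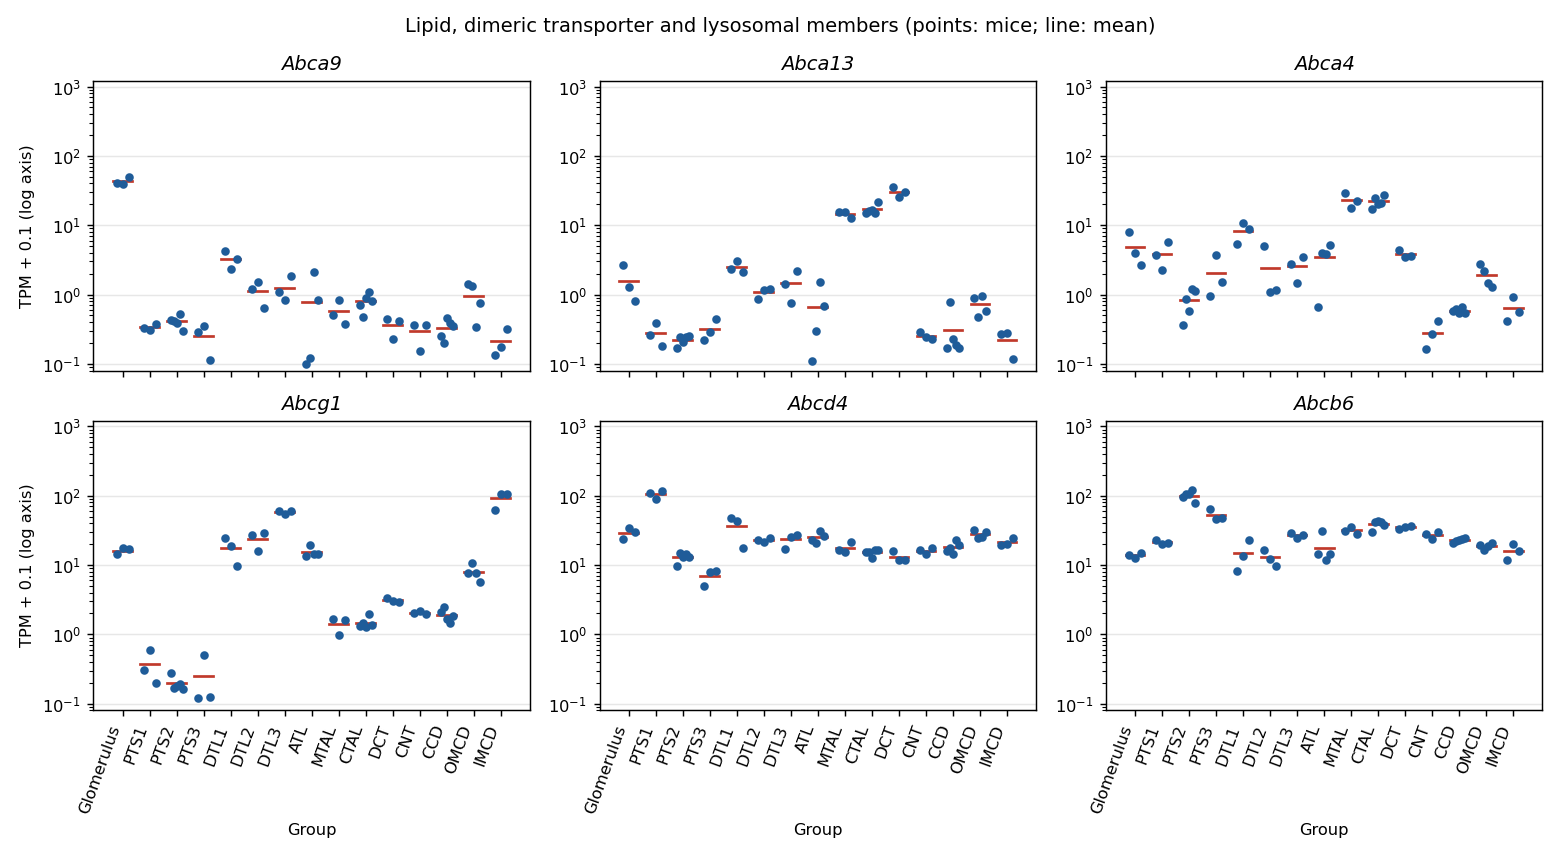
Level of 6 lipid, dimeric transporter and lysosomal members in every mouse (points, TPM + 0.1 on a log axis) and the group mean (red line). Abca9 is at 42.8 TPM in Glomerulus and at 3.15 TPM or less elsewhere, Abca13 is highest in DCT, Abca4 in the thick limb, Abcg1 in IMCD and DTL3, Abcd4 in PTS1 and Abcb6 in PTS2.

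Against the mean of the 14 tubule groups, Glomerulus had 23 members called higher and 1 lower of 44, beside 35.6% of all genes (31.6% higher). The medians were 1.10 over the members and 0.69 over all genes, so the whole table was shifted the same way. After median-ratio rescaling the split was 16 higher and 4 lower, and after quantile normalization 5 and 8; the median of all genes moved from 0.69 to 0.48 and -0.03. Under each alternative tried, 6 of the 24 calls held: Abca9, Abcb1b, Abca7, Abca2 and Abcg2 higher and Abcd3 lower. The Abcg2 call is against the mean of log2 values over the 14 groups, most of them low in Abcg2. Its Glomerulus mice (62.6 to 77.1 TPM) were below every proximal mouse (233 TPM or more) and overlapped those of DTL1 (57.2 to 72.8 TPM). Without Glomerulus mouse 1 the calls for Abca12 (0.92), Abcb11 (0.90) and Abcc6 (0.96) were lost. The glomerular libraries also held endothelial RNA (summed level of 5 markers 2870 to 2910 TPM against at most 907 TPM in any tubule mouse). Leukocyte RNA (5 markers) was at 510 to 763 TPM, within the range of CTAL at 402 to 871 TPM. Stromal and muscle RNA (5 markers) was at 395 to 584 TPM against at most 34.7 TPM, and erythroid RNA (3 markers) at 176 to 502 TPM against at most 71.7 TPM. Each marker had a Glomerulus mean of at least 0.1 TPM. That limit lies under the receptor yardstick of 3.4 TPM there, so the number of markers past it cannot tell these cells from background. The part of these cells in the glomerular levels of Abca9, Abcb1a, Abcb1b, Abca2 and Abca7 was not tested.

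The dimeric transporters of mitochondria and lysosomes were expressed throughout, with 5 of 5 members at 1 TPM or more in all 15 groups. Abcb8, a mitochondrial inner membrane protein tied to iron export, was the most abundant of them, at 134, 142 and 141 TPM in MTAL and 120, 133, 114, 127 and 129 in CTAL, and it was lowest in IMCD at 25.0, 29.7 and 29.4 TPM. OMCD (74.5, 89.8, 90.3 and 82 TPM) exceeded IMCD by 1.59 (SE 0.16, adjusted p = 4.71e-11 by limma), without overlap. Abcb6, a porphyrin transporter, was at 94.1, 104, 104, 120 and 79.3 TPM in PTS2 and 63.3, 46.1 and 47.2 TPM in PTS3. In PTS1 it was only at 23.1, 20.3 and 20.7 TPM, and PTS1 minus PTS2 was -2.17 (SE 0.21, adjusted p = 2.11e-11). Its margin in PTS2 over the next group, 0.98 (SE 0.21), lay just under the fold limit of the single-group test.

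Abcb10, a mitochondrial protein needed for haem synthesis, was highest in CTAL (24.3, 25.4, 27.9, 25.0 and 26.4 TPM) and lowest in PTS3 (4.24, 7.16 and 5.16 TPM). PTS2 (13.2 to 16.8 TPM) exceeded PTS3 by 1.37 (SE 0.20, adjusted p = 1.12e-06 by limma), a call lost after quantile normalization and with a pseudocount of 5. Abcb9, a lysosomal peptide transporter, was at 19.7, 17.9 and 17.8 TPM in Glomerulus and spread widely in DTL1, from 3.98 to 32.2 TPM.

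Peroxisomal and lysosomal members also differed between parts of the proximal tubule. Abcd3, which encodes a major peroxisomal membrane protein that imports branched-chain and bile acid precursors, was the second most abundant member after Abcg2. It was at 357, 364, 342, 349 and 325 TPM in PTS2 against 121, 118 and 102 TPM in PTS1 and 211, 167 and 186 TPM in PTS3. PTS1 minus PTS2 was -1.60 (SE 0.11, adjusted p = 1.16e-15 by limma). A further peak lay in DCT, at 284, 261 and 280 TPM, and Glomerulus was lowest, at 59.5, 57.4 and 51.2 TPM.

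The Abcd3 window at chr3:121815253-121815552 (minus strand) is shown because it was the only 1 of the 45 member windows that held the HNF4A letters, in capitals; of the 2 Abcd3 windows it is the poorer in GC.
Abcd3 promoter: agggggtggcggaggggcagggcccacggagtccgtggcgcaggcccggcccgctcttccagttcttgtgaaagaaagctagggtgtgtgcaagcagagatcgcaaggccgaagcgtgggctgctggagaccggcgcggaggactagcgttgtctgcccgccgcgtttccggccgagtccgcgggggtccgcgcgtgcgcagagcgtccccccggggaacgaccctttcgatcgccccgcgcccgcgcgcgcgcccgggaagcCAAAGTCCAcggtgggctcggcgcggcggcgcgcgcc
The other Abcd3 window held none of the 3 motifs.

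Abcd4, which moves vitamin B12 out of lysosomes, differed between PTS1 and PTS2 in the opposite direction to Abcd3. It marked PTS1, with 110, 90.3 and 115 TPM, and was at 9.57, 15, 13.1, 14.2 and 13.1 TPM in PTS2 and 4.92, 7.73 and 8.04 TPM in PTS3. The next group after PTS1 was DTL1, at 48.3, 42.7 and 17.7 TPM, and the margin over it was 1.62 (SE 0.24, adjusted p = 5.75e-06 in limma's single-group test). In PTS1, 0.544% of all genes passed that test. PTS1 exceeded PTS2 by 2.93 (SE 0.22, adjusted p = 4.02e-15), without overlap. The rest of the nephron lay between 11.6 and 33.6 TPM.

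Over the proximal axis, 8 members differed between PTS1 and PTS2, beside 9.57% of all genes. Abcc4, Abcd4, Abca4 and Abcc5 were higher in PTS1, and the higher ones in PTS2 included Abcc9, Abcb6 and Abcd3. Abcc9, named here after its values were seen, encodes the regulatory subunit of the ATP-sensitive potassium channel of smooth muscle. It was at 0.32, 0.32 and 0.21 TPM in PTS1 and 4.1, 7.11, 4.35, 6.45 and 6.54 TPM in PTS2 (PTS1 minus PTS2 -2.36, SE 0.29, adjusted p = 6.44e-09 by limma). Kcnj8, the pore of that channel, differed the same way, with means of 1.15 TPM in PTS1 and 12.2 TPM in PTS2 (-2.64, adjusted p = 1.74e-07). The summed stromal and muscle markers were at 0.27 to 2.26 TPM in PTS2, where 2 of the 5 were under 0.1 TPM. Summed leukocyte markers were at 32.1 to 56.9 TPM in PTS1 and 77.8 to 154 TPM in PTS2, and their part in the 8 calls was not tested. The split of 4 and 4 was 6 and 5 after median-ratio rescaling and 4 and 5 after quantile normalization. With a pseudocount of 0.1 it was 11 higher and 5 lower in PTS1.

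Between PTS2 and PTS3, 6 members were called, beside 4.7% of all genes, each higher in PTS2 (3.94% of all genes in that direction). They included Abca3, Abcc9, Abcc10, Abcb10 and Abca1. The call for Abca1 (1.02, SE 0.33, adjusted p = 0.0267 by limma) was lost without PTS2 mouse unnumbered (0.95, adjusted p = 0.066) and without any 1 of the PTS3 mice (adjusted p between 0.0751 and 0.0838). With mouse number as a replicate block the Abca1 call was also lost. With a pseudocount of 5 the calls for Abcc9, Abcc10, Abcb10 and Abca1 were lost. With only ATL mice 2 and 3, or only mice 4 and 6, 8 members were called higher in PTS2. Genes called in that direction numbered 1366 and 1358 then, in place of 1333. Without Glomerulus, DTL1, DTL2, DTL3 and ATL the count was also 8 members, beside 1386 genes. Between DTL2 and DTL3, 5 members were called, beside 9.58% of all genes. Abcc4, Abcg1, Abcc5 and Abcb6 were higher in DTL3. Leaving out DTL2 mouse 3 left 3 calls and ended that for Abcb6 (-0.86), and without DTL3 mouse 3 that for Abcc5 (-0.97) was lost. Median-ratio rescaling also ended the calls for Abcb6 and Abcc5. The leukocyte markers, summed, were at 154 to 185 TPM in DTL2 and 14.9 to 17.6 TPM in DTL3. Thick limb markers were at 19.2 to 24.3 TPM in DTL2 and 188 to 330 TPM in DTL3, and ATL markers at 110 to 184 and 3.04 to 4.73 TPM. The part of these markers' cells in the calls was not tested. The split of 1 higher and 4 lower in DTL2 was 3 and 2 after rescaling and 4 and 3 after quantile normalization.

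From the medullary to the cortical thick limb, 2 of the 44 members differed (Abcc1 and Abca3, both higher in CTAL), beside 3.15% of all genes. Between CTAL and DCT 3 differed, with Abca4 higher in CTAL and Abca1 and Abca3 higher in DCT, beside 4.35% of all genes. Summed intercalated cell markers were at 0.83 to 3.23 TPM in CTAL and 527 to 579 TPM in DCT. Collecting duct principal cell markers were at 4.34 to 7.38 and 431 to 519 TPM, and leukocyte markers at 402 to 871 and 206 to 325 TPM. The part of these in the 3 calls was not tested. Between CCD and OMCD 6 members were called, all higher in OMCD, beside 12.1% of all genes (10.4% higher in OMCD). After median-ratio rescaling 4 were called and after quantile normalization 1, again higher in OMCD, while all genes went from 586 higher and 3509 lower in CCD to 898 and 695 after quantile normalization. The calls for Abcb1b, Abcb4, Abcc6, Abcg1 and Abcg5 were lost after quantile normalization and with a pseudocount of 5. OMCD libraries held 76 to 253 receptor genes at 1 TPM or more and CCD libraries 1 to 2, and the medians of -0.30 over members and over all genes were equal. The part of that background in the 6 calls was not tested. Of them Abcb1b, Abcb4 and Abcc6 were lost without OMCD mouse 1 (adjusted p = 0.0863), OMCD mouse 1 (0.0645) and OMCD mouse 4 (0.0633), Abcb4 also without CCD mouse 1 or 2 or OMCD mouse 2 or 3.

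Abcg3, a rodent relative of Abcg2 that is named here after its values were seen, kept its difference between CCD and OMCD under each alternative tried. Its level was 7.46, 6.01, 6.49 and 6.28 TPM in OMCD against 0.26 to 0.64 TPM in CCD and 0.01, 0.05 and 0.02 TPM in IMCD. CCD minus OMCD was -2.45 (SE 0.25, adjusted p = 2.31e-10 by limma) and OMCD minus IMCD 2.87 (SE 0.28, adjusted p = 1.98e-11). The OMCD level was several times the receptor yardstick of 1.06 TPM there, whereas Glomerulus, at 3.3, 4 and 2.2 TPM, was about at its yardstick. The leukocyte markers, summed, were at 96.6 to 454 TPM in OMCD and 120 to 300 TPM in CCD, ranges that overlap, and at 4.49 to 4.74 TPM in IMCD. The intercalated cell markers, summed, were at 2640 to 3680 TPM in CCD, 1750 to 2410 TPM in OMCD and at most 3.12 TPM in IMCD. Their part in the level of Abcg3 was not tested.

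OMCD and IMCD differed in 18 of 44 members, beside 18.6% of all genes. Abcg1, Abcc5 and Abcc4 were lower in OMCD, and 15 members were higher there (15.2% of all genes), with medians of 0.62 over the members and 0.32 over all genes. Markers of other cells moved with this comparison: the 3 intercalated cell markers summed to 1750 to 2410 TPM in OMCD and 0.137 to 3.12 TPM in IMCD, and the 5 leukocyte markers to 96.6 to 454 TPM and 4.49 to 4.74 TPM, with 1 of the 5 under 0.1 TPM in IMCD. Receptor genes at 1 TPM or more numbered 76 to 253 in OMCD libraries and 3 to 25 in IMCD libraries. Their part in the 18 calls was not tested. Besides Abcg3, the higher members included Abcg2 (OMCD mice at 21.4, 12, 17.8 and 14.1 TPM, a difference of 2.53 with SE 0.53 and, by limma, adjusted p = 0.000182), Abcb9, Abca7, Abcb8 and Abcd3, and 9 of the 18 calls held under each alternative tried. The split of 15 and 3 was 10 and 4 after median-ratio rescaling and 6 and 4 after quantile normalization, when the median of all genes moved from 0.32 to 0.21 and -0.01. Calls near the limit were lost without 1 mouse: without IMCD mouse 1 for Abca2 (0.94) and Abca3 (0.87), without OMCD mouse 2 for Abca3 (0.97), without OMCD mouse 1 for Abcg5 (0.93) and Abcb1b (adjusted p = 0.0841), and without IMCD mouse 3 for Abcb1b (adjusted p = 0.0647). For Abcc6 any of 6 mice did so, with adjusted p between 0.0529 and 0.103, and its call was also lost with mouse number as a replicate block.

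The proximal comparison also lost calls under another scaling. After median-ratio rescaling 7 members were higher and 8 lower in place of 4 and 13, and quantile normalization gave the same split, while the median of all genes went from -0.10 to 0.00 and 0.01. Those lost included the lower calls for Abca5, Abcb9, Abcc10 and Abcc3, between -1.01 and -1.15. A pseudocount of 5 also ended the calls for Abca1, Abca13 and Abcc9. Abcb9 (-1.01) was also lost without IMCD mouse 2, MTAL mouse 2, PTS1 mouse 2 or PTS3 mouse 2, with values from -0.91 to -0.99. Abcg2, Abcc2, Abcc6, Abcc1, Abcc4, Abcg1, Abca7, Abca2 and Abcc5 held under each alternative tried.

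The soluble members Abce1, which recycles ribosomes, and Abcf1, Abcf2 and Abcf3, of which Abcf1 acts in translation initiation, varied least among the named members. Their highest group means were 67.3, 76.9, 90.5 and 91.3 TPM, and the highest mean was 2.9, 2.69, 2.51 and 3.16 times the lowest. All 4 were lowest in PTS1 or PTS3. Their log2 differences ran from -0.74 to -0.48 in the proximal comparison and from 0.26 to 0.69 in the glomerular one, under the limit of 1 for a call, where 19.7% and 35.6% of all genes were called. The highest group overlapped the next in each of the 4, and in 17 of all 30 named members. The share over all genes is not given here, so these counts describe the members only.

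Members past the filter but under the limit for individual description numbered 14, with highest group means from 1.07 to 9.25 TPM, and 9 of these were highest in Glomerulus or DTL1. In 12 of the 50 members the highest group mean lay under the 95th percentile of the receptor genes in the same group: the 6 below the filter and Abca6, Abca12, Abca14, Abcb11, Abcc8 and Abcg5. The bile-type genes Abcb11, Abcg5 and Abcg8 were among them. Abcb4, a phosphatidylcholine transporter of the liver canaliculus, reached 6.55, 6.48 and 10 TPM in DTL1, the last in mouse 5 under that mouse's percentile of 11.2 TPM, but 0 and 0.03 TPM in ATL mice 2 and 3 against 16.1 and 6.65 TPM in ATL mice 4 and 6. Abcc8, the potassium channel subunit of pancreatic beta cells, was at most 5.29 TPM on average, in DTL1.

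**Figure D5:**
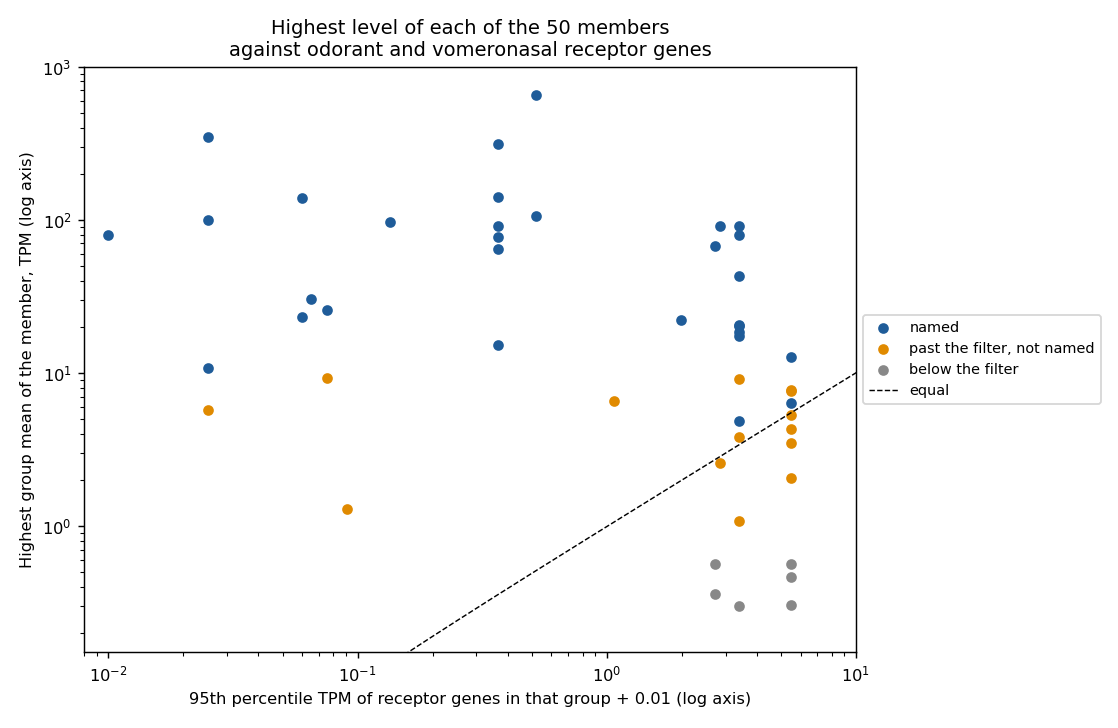
Highest group mean of each of the 50 members (TPM, log axis) against the 95th percentile of odorant and vomeronasal receptor genes in that group (TPM + 0.01, log axis), with a dashed line where the 2 are equal. The named members lie above the line, and 12 members, 6 of them below the filter, lie under it.

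Of 31 other genes of these pathways, 18 were higher and 4 lower in the proximal groups than from MTAL to IMCD. Of all genes, 19.7% were called in that comparison (4.46% higher and 15.3% lower). The 31 genes were chosen with earlier results of these data known, so these counts describe the list only. The scaffold gene Pdzk1, whose protein binds apical transporters, went with Abcg2 and Abcc2: its mean was 1560 TPM in PTS1, 1990 in PTS2 and 1460 in PTS3 and 0.298 TPM in IMCD (log2 difference 9.46, adjusted p = 1.09e-32 by limma). Organic anion uptake genes of the list differed between parts of the proximal tubule. Slc22a6 was at 30.9 TPM in PTS1, 981 in PTS2 and 1.45 in PTS3, and Slc22a8 at 258, 56.4 and 0.00167 TPM. Slc22a7 was at 2.1 TPM in PTS1, 2470 in PTS2 and 1460 in PTS3, whereas Abcc2 was at 58.8 to 79.7 TPM in all 3. Slco4c1 was at 27.2 TPM in PTS2 and 30.8 in PTS3 and also at 4.91 TPM in CNT, 6.45 in CCD and 8.09 in OMCD. Nfe2l2, the regulator that binds antioxidant elements, was lower in the proximal groups (-2.95, adjusted p = 1.42e-31), with means of 25.1, 30.8 and 25.7 TPM against 123 to 356 TPM from MTAL to IMCD. Tap1 and Tap2, ABC genes of antigen processing whose symbols lie outside the rule, were lower as well (-1.94 and -2.15). Leukocyte markers, summed, were at 32.1 to 154 TPM in the proximal groups, 402 to 871 TPM in CTAL and 4.49 to 4.74 TPM in IMCD. The part of leukocyte RNA in the Tap1 and Tap2 differences was not tested. Cftr was at most 2.36 TPM on average, in PTS1.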

How the data were processed

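Glomeruli and tubule segments were dissected by hand, and per the labels' protocols RNA was amplified with an ultra-low input cDNA kit and made into Nextera XT libraries. The deposited table holds TPM computed by the authors for 54532 genes. The submitters' processing notes name STAR 2.5.4a, RSEM 1.3.0, Cell Ranger 3.0.2 and Seurat without roles. The genome build and annotation are not given in the sources used here. Of the samples, 3 single-cell runs were not analysed here, and no column of sample values (0) was set aside. A PTS2 column whose piece letter matched no title entered PTS2 as an unnumbered mouse.

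Pieces of 1 mouse were averaged. Genes at 1 TPM or more in at least 3 mice were kept (33793). Displayed levels are arithmetic means of pieces. Tests ran in limma 3.58.1 (R 4.3.3, eBayes with trend) on log2(TPM + 1), pieces averaged on that scale, with 15 groups sharing 1 spread. Differences are on this scale, which understates changes of low genes. P-values are two-sided, except in the intersection-union test (largest one-sided p of 14 contrasts). They were adjusted by Benjamini-Hochberg over all 33793 genes, with a threshold of 0.05. A log2 difference of at least 1 was also required outside the F-test. On simulated data with 33793 genes the contrast PTS1-3 against MTAL to IMCD recovered 99% of changes of 2 log2 units with 1 unchanged gene called, the other contrasts 91% (PTS2-PTS3) to 98% with 1 to 10, the F-test 88% with 17 and the single-group test 88% with 0. Members with a highest group mean of at least 10 TPM or past the single-group test were described singly. The members, lists and comparisons were chosen with earlier results of these data known. As alternatives, the pseudocount was 0.1 or 5 and the filter was set at 5 TPM or dropped. Others were median-ratio rescaling (8230 genes), quantile normalization, pieces averaged as TPM, a block for mouse number, leaving out each mouse, either pair of ATL mice, and 10 groups. Promoters came from RefSeq (GRCm38.p6). Tables and figures used Python 3.11.15, pandas 2.3.3 and matplotlib 3.10.9. Results for single members that are not reported here remain in the counts over all members.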

Additional observations from a re-analysis of the deposited data

Results flagged for a closer look

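In groups of 4 or 5 mice, 85 combinations of a named member and a group with a mean of at least 10 TPM were examined for 1 mouse far from the others (the gap to the nearest mouse over the whole range, against Dixon's critical value). There were 4 such values in the 85 combinations. This is about as many as chance gives, at about 1 in 20 groups, so they are listed as values only. Abcb6 was at 30.7 TPM in ATL mouse 3, with the other 3 mice between 11.6 and 14.2 TPM. Abcg1 was at 19.1 TPM in the same ATL mouse, with the others between 13.5 and 14.1 TPM. Abcc5 was at 17.6 TPM in CTAL mouse 3, with the other 4 between 22.8 and 24.5 TPM, and Abcf1 was at 42.6 TPM in the same CTAL mouse, with the others between 50.5 and 53.7 TPM.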

How the results depend on the processing

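Of 94 calls for single members, 38 held under each alternative tried and 19 were lost without 1 mouse. The counts of members called that moved by over 1.5 times were these. A pseudocount of 0.1 gave 16 for PTS1-PTS2, 10 for PTS2-PTS3, 5 for CTAL-DCT and 17 for CCD-OMCD. A pseudocount of 5 gave 3 in the single-group test, 9 for PTS1-3 against MTAL to IMCD, 7 for Glomerulus, 5 for PTS1-PTS2, 1 for PTS2-PTS3, 3 for DTL2-DTL3, 1 each for MTAL-CTAL, CTAL-DCT and CCD-OMCD, and 11 for OMCD-IMCD. Rescaling gave 1 for MTAL-CTAL. Quantile normalization gave 13 for Glomerulus, 1 for MTAL-CTAL, 1 for CCD-OMCD and 10 for OMCD-IMCD, and it turned the margin of Abcb1a in Glomerulus to -0.84. The cause of these shifts was not tested. Leaving out 1 mouse gave 3 to 6 calls for DTL2-DTL3 (3 without DTL2 mouse 3). Of 30 named members, 3 changed their highest group when medians were used: Abca5 and Abcb1b to Glomerulus and Abcf2 to IMCD. With mouse number as a replicate block the F-test called 44 members and OMCD-IMCD 17, and the calls for Abca1 (PTS2-PTS3) and Abcc6 (OMCD-IMCD) were lost. The series text counts 53 mice, as many as there are combinations of mouse number and segment, so the same number in 2 segments is not read as 1 animal. Over 290 pairs with the same number in other groups the median correlation of deviations was 0, with 19 pairs over 0.1. In 1016 pairs with different numbers the median was 0, with 32 over 0.1. Of 52 numbered mice, 26 correlated best with their own number, a hint from the data only that values of the same number may not be independent. How many would do so if numbers meant nothing was not computed. Depth is unknown, so low values carry no counting interval.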
